A study of Homo sapiens with 6 samples.

Results

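The genes described here handle lipid in macrophages that take up lipoprotein and become foam cells. They are ABCA1, ABCG1, APOE, NR1H3, PPARG, MYLIP, FABP4, FABP5, PLIN2 and LPL, and they were read by gene name from a count table of 61267 genes, in which all 10 have a row. THP-1, a leukemia line of human monocytes, was profiled by RNA-seq in 2 groups of 3 libraries, labelled KD and NC. In both groups the cells had been made adherent with PMA, a phorbol ester that drives monocytes towards macrophages (100 ng/ml, 48 h). The series title names METTL1, a tRNA m7G methyltransferase, and acute inflammation, while the labels give no target or method for KD and do not spell out NC. Nothing in the labels says that libraries of 1 group were cultured apart, and the p-values therefore measure a spread between samples that may be technical only.

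Macrophages clear modified lipoprotein through scavenger receptors and store the cholesterol as ester in lipid droplets. Oxysterols made from that cholesterol activate the liver X receptors (LXR), which pair with RXR and switch on export through ABCA1 and ABCG1 to apolipoprotein acceptors and switch on MYLIP, which curbs lipoprotein uptake. Fatty acids and their derivatives activate PPARG, a nuclear receptor known in macrophages for raising FABP4, CD36 and PLIN2 and, through NR1H3, for feeding into the LXR arm.

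The libraries held 37628972 to 42970216 counts. In the all-gene fit by edgeR's quasi-likelihood test, METTL1 itself had 567, 528 and 524 counts in KD libraries, against 596, 653 and 642 counts in NC libraries, a log2 fold change of -0.10 ± 0.076 (SE) with an adjusted p of 0.216. Of 21905 genes tested, 76.5% passed an adjusted p of 0.05 in 1 direction or the other. The summed level of 70 leukocyte-restricted genes was 9757 to 9903 CPM (counts scaled to a common library size) in KD libraries, against 4462 to 4537 CPM in NC libraries. List sums use library size alone. CPM of single genes are further scaled by normalization factors over all genes (TMM), so sums and single genes differ somewhat in scale. A list of 21 genes typical of HEK293, a human embryonic kidney line, summed to 27.5 to 27.9 CPM in KD libraries, against 3264 to 3613 CPM in NC libraries. All 19 of its tested genes were lower in KD, against 40.3% of all tested genes in the all-gene fit. Of the 21 genes, 13 had any count in KD libraries, against 21 of 21 in NC libraries. List genes without a KD count could pass the low-count filter only through NC libraries, so their direction was fixed in advance. The most abundant gene of the list, the neurofilament subunit NEFM, averaged 0.390 CPM in KD libraries and 1595 CPM in NC libraries. The NC libraries so held genes for which the labelled cell line is not known, beside the leukocyte genes for which it is, and results are given on 2 scales. The first is scaled over all genes. The second, called the leukocyte scale, takes its normalization factors from 69 tested leukocyte-restricted genes. Between them the median shift of the tested genes' log2 fold changes is 1.18, lower on the leukocyte scale. On the leukocyte scale METTL1 had a log2 fold change of -1.28 ± 0.075 (SE, adjusted p = 3.70e-14 by edgeR). The median of all tested genes on that scale was -1.23, and 82.8% of them were called lower, so METTL1 lay near the typical gene. In bulk RNA, fewer cells of a type and less RNA per cell cannot be told apart.

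All 10 lipid genes were higher in KD on the all-gene scale. Each passed the low-count filter and the test, where 36.2% of tested genes were called higher and 40.3% lower. Their CPM values did not overlap between groups for 10 of 10, against 36.7% of tested genes separate and higher. Of the 10, 8 were at least 2-fold higher, against 12.6% of tested genes, and 9 passed a test against a fold of 1.5, against 18.0% of tested genes. The median log2 fold change was 1.34 for the 10 genes and -0.05 for all tested genes. The 69 leukocyte-restricted genes, however, had a median of 1.16 and a range of 0.14 to 1.78, and 65 of them were higher in KD. On the leukocyte scale the 10 genes parted. FABP4, APOE, ABCG1, ABCA1, LPL and PLIN2 were higher, 6 of 10 against 3.71% of tested genes. NR1H3 and MYLIP were lower, 2 of 10 against 82.8% of tested genes, and PPARG and FABP5 did not pass, while 86.5% of tested genes passed in 1 direction or the other. The same 6 genes were separate and higher on that scale, against 4.16% of tested genes, and the same 2 were separate and lower, against 83.0%. Against a fold of 1.5 on the leukocyte scale, FABP4 alone of the 10 was higher, where 0.685% of tested genes were. The median was 0.16 for the 10 genes and -1.23 for all tested genes. Of the 69 leukocyte-restricted genes on that scale, 23 were higher and 22 were lower. On the all-gene scale, 24 of the 69 had a larger fold change than PLIN2, 23 than LPL and 15 than ABCA1. For ABCG1, APOE and FABP4 that number was 5, 1 and 0. The part of the marker differences in any of these results was not tested.

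**Figure D1:**
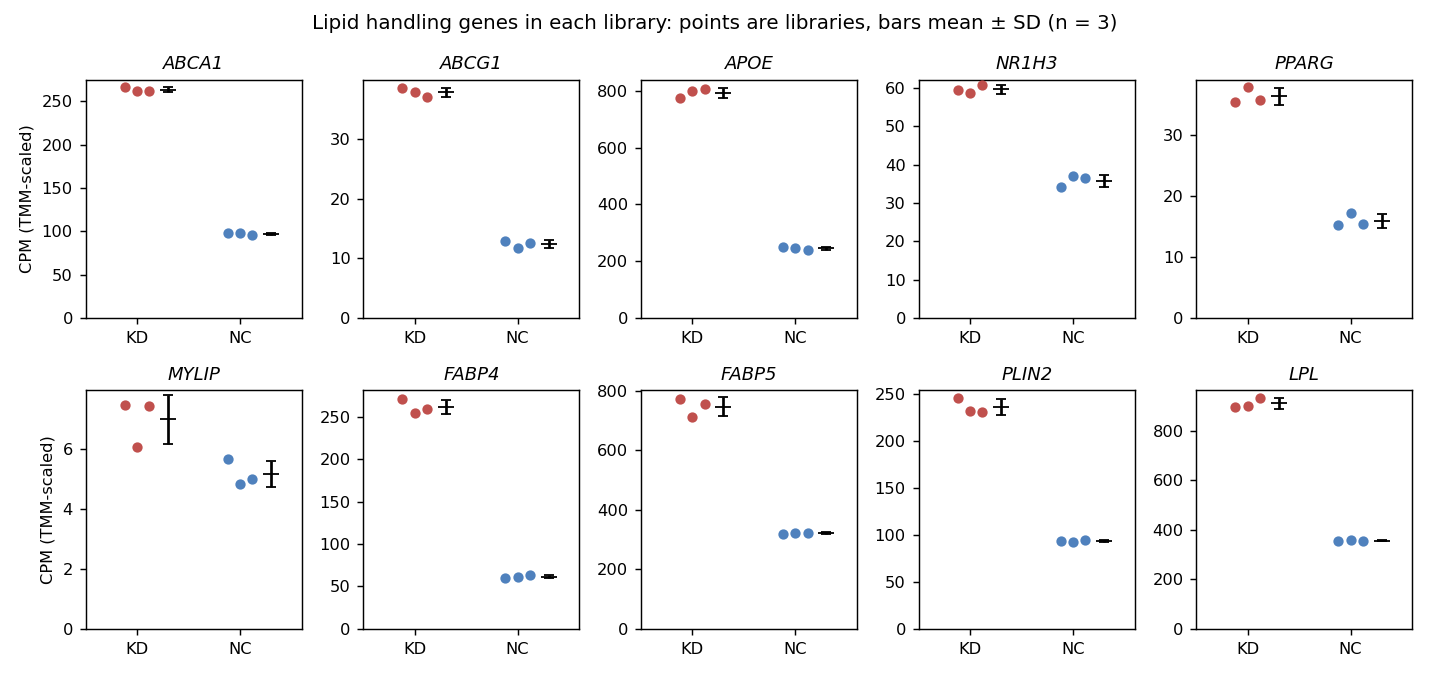
Normalized level of each of the 10 lipid genes in CPM on the all-gene scale (linear axes from 0), with 3 KD libraries left of 3 NC libraries as points and bars for mean and SD (n = 3). In every panel the KD points lie above the NC points, most widely for FABP4 and most narrowly for MYLIP.

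The genes of cholesterol export were higher in KD on both scales. ABCA1, which loads cellular cholesterol onto lipid-poor apolipoprotein A-I, lies at chr9:104781006-104928155 on the minus strand of GRCh38. Its level was 266, 262 and 262 CPM in KD libraries, against 97.8, 98.0 and 96.3 CPM in NC libraries. The groups lay far apart and each was tight, with 264 ± 2.41 CPM in KD and 97.3 ± 0.943 CPM in NC (SD, n = 3 each), a 2.71-fold difference. The log2 fold change of ABCA1 was 1.44 ± 0.039 (SE) with an adjusted p of 1.67e-20 by edgeR, and 0.26 ± 0.043 with an adjusted p of 6.36e-06 on the leukocyte scale. The ABCA1 promoter is shown because it carries a sequence of the kind LXR and RXR bind, a direct repeat spaced by 4 bases. The window runs from 250 bases before to 50 after the start, chr9:104928106-104928405 on the minus strand, in RefSeq's GRCh38.p14. Capitals mark the repeat match, on the opposite strand 69 to 55 bases before the start, and a TATAAA 31 to 26 bases before it.
ABCA1 promoter: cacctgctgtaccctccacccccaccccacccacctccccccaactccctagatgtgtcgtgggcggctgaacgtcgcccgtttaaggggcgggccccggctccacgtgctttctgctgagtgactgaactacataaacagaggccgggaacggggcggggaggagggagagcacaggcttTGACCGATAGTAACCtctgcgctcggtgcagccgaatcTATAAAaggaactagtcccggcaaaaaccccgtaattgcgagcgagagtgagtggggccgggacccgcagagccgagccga
The repeat was searched on both strands as the half-site GGTNA, met again in the same direction after a gap of 5 letters (the first letter of the second half-site is left free), and 0.626% of 35116 promoters of the same length hold it. TATAAA was found in 11.5% of promoters. Both motif matches are descriptions of the letters and say nothing of binding in these cells.

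ABCG1, the partner transporter that passes cholesterol to mature high-density lipoprotein, lies at chr21:42199689-42297244 on the plus strand. Its level was 38.5, 37.8 and 37.0 CPM in KD libraries, against 12.9, 11.7 and 12.6 CPM in NC libraries. No KD value came near the NC values. The difference was 3.05-fold, a log2 fold change of 1.61 ± 0.062 (SE, adjusted p = 1.13e-17 by edgeR) and of 0.43 ± 0.065 on the leukocyte scale (adjusted p = 1.52e-06). APOE, a secreted apolipoprotein that macrophages supply as a cholesterol acceptor, lies at chr19:44905791-44909393 on the plus strand. Its level was 773, 798 and 807 CPM in KD libraries, against 249, 248 and 239 CPM in NC libraries. Every KD library held over 3 times the APOE of any NC library. The APOE difference was 3.23-fold, with a log2 fold change of 1.69 ± 0.042 (SE, adjusted p = 2.82e-21 by edgeR), and 0.51 ± 0.047 on the leukocyte scale (adjusted p = 2.53e-10). Only 1 of the 69 leukocyte-restricted genes had a larger fold change than APOE. APOE shares 19 exon bases with another gene on the same strand. Within a library, ABCA1 relative to ABCG1 per length was 3.77 ± 0.0510 in KD and 4.25 ± 0.233 in NC, and APOE relative to APOC1 was 11.3 ± 0.664 in KD and 6.65 ± 0.384 in NC (SD, n = 3 each). Both ratios separated the groups. Each had an exact permutation p of 0.1, two-sided, the smallest that 3 against 3 allows, and 0.175 after adjustment over 7 ratios.

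The receptors had smaller fold changes than the export genes. NR1H3 encodes LXR alpha, the LXR form high in macrophages, and lies at chr11:47248300-47269033 on the plus strand. Its level was 59.5, 58.5 and 60.8 CPM in KD libraries, against 34.1, 37.0 and 36.4 CPM in NC libraries. The groups did not overlap on the all-gene scale, and NR1H3 was 1.66-fold higher, with a log2 fold change of 0.73 ± 0.048 (SE, adjusted p = 5.42e-13 by edgeR). On the leukocyte scale the sign turned, to -0.45 ± 0.050 (adjusted p = 9.76e-09). Of the 69 leukocyte-restricted genes, 59 had a larger fold change than NR1H3. The gene shares 189 exon bases with ACP2 on the opposite strand, and no source used here says whether reads were counted by strand. PPARG, the master regulator of fat cell formation that is also induced in macrophages, lies at chr3:12287368-12434356 on the plus strand. Its level was 35.4, 38.0 and 35.8 CPM in KD libraries, against 15.3, 17.3 and 15.4 CPM in NC libraries. The PPARG groups were separate, and the difference was 2.27-fold, with a log2 fold change of 1.19 ± 0.063 (SE, adjusted p = 8.35e-15 by edgeR). On the leukocyte scale PPARG stood at 0.01 ± 0.064 with an adjusted p of 0.937, in the middle of the leukocyte-restricted genes, 32 of which had larger fold changes. Against their family partners within a library, neither receptor separated the groups. NR1H3 relative to NR1H2 was 1.76 ± 0.0456 in KD and 1.86 ± 0.145 in NC, with an exact permutation p of 0.4 (n = 3 each). PPARG relative to PPARD was 0.0461 ± 0.00181 in KD and 0.0499 ± 0.00375 in NC, with an exact permutation p of 0.3 (n = 3 each).

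PLIN2, the perilipin that coats lipid droplets in cells other than fat cells, lies at chr9:19108375-19149290 on the minus strand. Its level was 246, 232 and 231 CPM in KD libraries, against 93.4, 92.1 and 94.9 CPM in NC libraries. The PLIN2 groups were separate at 2.53-fold, with a log2 fold change of 1.34 ± 0.041 (SE, adjusted p = 1.70e-19 by edgeR), and 0.16 ± 0.046 on the leukocyte scale (adjusted p = 0.00303). The PLIN2 promoter is shown as the droplet gene with a window in RefSeq's table, chr9:19127443-19127742 on the minus strand of GRCh38.p14. Its start site, 19127492, is the start of a deposited PLIN2 exon but lies inside the gene span, not at 19149290. Capitals mark TTTATA, the reverse complement of TATAAA, at 29 to 24 bases before the start.
PLIN2 promoter: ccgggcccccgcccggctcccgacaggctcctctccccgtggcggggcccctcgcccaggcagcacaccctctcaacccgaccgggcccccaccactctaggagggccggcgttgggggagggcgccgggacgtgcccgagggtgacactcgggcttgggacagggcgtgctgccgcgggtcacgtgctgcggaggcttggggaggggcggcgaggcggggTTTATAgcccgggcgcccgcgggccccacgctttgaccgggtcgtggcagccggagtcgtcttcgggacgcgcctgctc
Windows were at hand for 6 of the 10 genes, the 3 printed and those of APOE, NR1H3 and PPARG. A direct repeat spaced by 1 base, the kind PPARG and RXR bind (GGTNA met again after a gap of 2 letters, both strands), was in no window of the 6 genes and in 0.709% of all promoters.

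MYLIP, a ubiquitin ligase that LXR switches on to curb lipoprotein uptake, had the smallest fold change of the 10 on the all-gene scale. It lies at chr6:16129086-16148248 on the plus strand and had 294, 237 and 293 counts in KD libraries, against 239, 198 and 225 counts in NC libraries. Its level was 7.47, 6.05 and 7.42 CPM in KD libraries, against 5.67, 4.83 and 4.98 CPM in NC libraries. The lowest KD library stood just above the highest NC library. MYLIP was 1.35-fold higher, with a log2 fold change of 0.44 ± 0.116 (SE, adjusted p = 0.00161 by edgeR), and scaled by library size alone it did not pass (0.25, adjusted p = 0.0613 by edgeR), a scale on which 28.4% of tested genes were called higher. On the leukocyte scale MYLIP was lower, at -0.74 ± 0.117 (adjusted p = 2.29e-06), and 66 of the 69 leukocyte-restricted genes had larger fold changes. The MYLIP promoter is shown beside that of ABCA1 because it lacks the repeat letters in this window, from which nothing follows about LXR. It covers chr6:16128836-16129135 on the plus strand of GRCh38.p14, from RefSeq. Capitals mark ATTGG, the reverse complement of CCAAT, at 109 to 105 and at 68 to 64 bases before the start, letters that 34.6% of promoters hold on either strand.
MYLIP promoter: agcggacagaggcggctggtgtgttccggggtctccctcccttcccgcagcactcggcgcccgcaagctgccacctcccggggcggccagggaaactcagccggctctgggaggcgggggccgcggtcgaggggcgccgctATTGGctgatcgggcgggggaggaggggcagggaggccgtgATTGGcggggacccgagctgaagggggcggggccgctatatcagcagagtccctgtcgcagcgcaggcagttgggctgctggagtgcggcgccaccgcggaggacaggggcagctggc

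**Figure D2:**
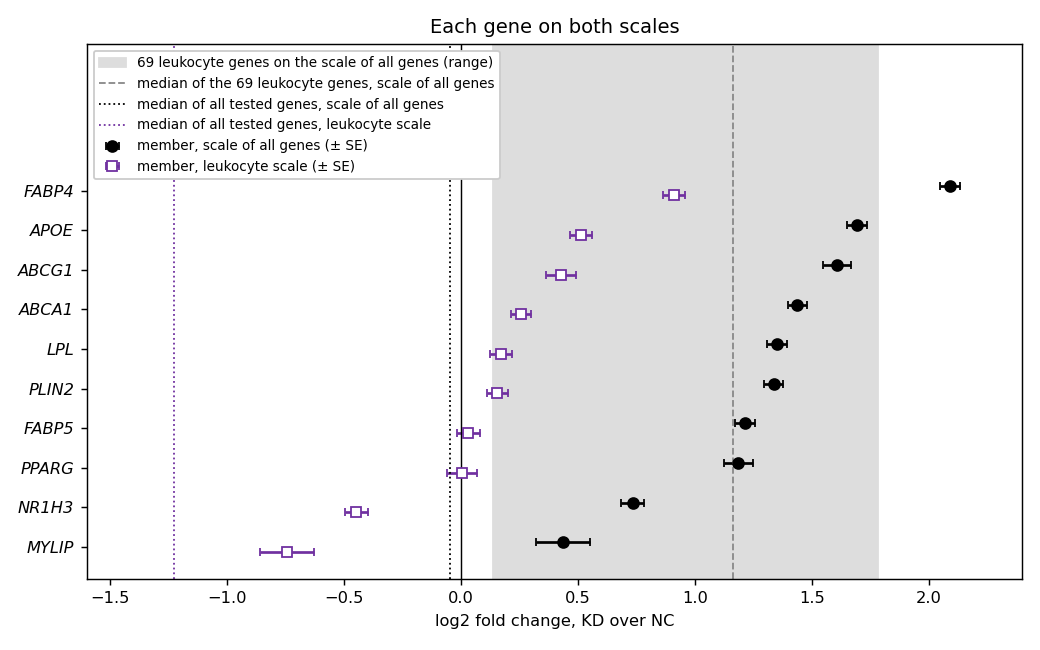
Log2 fold change, KD over NC, of each lipid gene with bars for 1 SE, on the all-gene scale and on the leukocyte scale, with the grey band spanning the 69 leukocyte-restricted genes on the all-gene scale (0.14 to 1.78). FABP4 lies above the band on the all-gene scale, and on the leukocyte scale NR1H3 and MYLIP fall below 0.

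FABP4 had the largest fold change of the 10. It encodes the fatty acid binding protein known from fat cells and from activated macrophages, and lies at chr8:81478419-81483236 on the minus strand. FABP4 levels were 270.5, 254 and 259 CPM in KD libraries, against 59.7, 61.4 and 63.1 CPM in NC libraries. The lowest KD library was about 4 times the highest NC library. FABP4 was 4.26-fold higher, with a log2 fold change of 2.09 ± 0.043 (SE, adjusted p = 7.41e-23 by edgeR), and 0.91 ± 0.046 on the leukocyte scale (adjusted p = 2.08e-15). No leukocyte-restricted gene and 0.726% of tested genes had a larger fold change. An adipocyte marker list of 12 genes, 11 of them in the table, summed to 8.47 to 9.22 CPM in KD libraries, against 10.4 to 10.6 CPM in NC libraries, and ADIPOQ, CIDEA and RETN were at 0 in every library.

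FABP5, a close relative found in skin and in macrophages, lies at chr8:81280536-81284777 on the plus strand. Its level was 774, 712 and 754.5 CPM in KD libraries, against 320, 323 and 324 CPM in NC libraries. The KD values spread more than the NC values and lay far above them, 2.32-fold on average. The log2 fold change of FABP5 was 1.21 ± 0.043 (SE, adjusted p = 2.32e-18 by edgeR), and 0.03 ± 0.048 on the leukocyte scale (adjusted p = 0.545). The counts of FABP5 are uncertain because reads may fall to 15 gene copies named after it in the table. These copies held 2.22 to 2.45% of the FABP5 count in KD libraries, against 3.00 to 3.65% in NC libraries. How reads matching both FABP5 and a copy were counted is not known, so these shares set no limit on the uncertainty. FABP5 also shares 80 exon bases with LNMICC on the opposite strand, and whether reads were counted by strand is not known. FABP4 relative to FABP5 per length was 0.486, 0.497 and 0.478 in KD libraries, against 0.260, 0.264 and 0.271 in NC libraries. The ratio separated the groups by 0.88 on the log2 scale (exact permutation p = 0.1, n = 3 each, adjusted 0.175). Of the 8 other fatty acid binding proteins only the heart form FABP3 passed the low-count filter, and it was lower in KD, at 0.390 ± 0.0282 CPM in KD and 1.25 ± 0.277 CPM in NC (log2 fold change -1.68 ± 0.301 SE, adjusted p = 2.11e-05 by edgeR). The other 7 had between 0 and 42 counts each over all 6 libraries.

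LPL, the secreted lipase that frees fatty acids from lipoprotein triglyceride, lies at chr8:19901717-19967259 on the plus strand. Its level was 899, 900 and 935 CPM in KD libraries, against 357, 358 and 357 CPM in NC libraries. The 3 NC libraries were nearly equal and every KD library was far above them. LPL was 2.55-fold higher, with a log2 fold change of 1.35 ± 0.042 (SE, adjusted p = 1.48e-19 by edgeR), and 0.17 ± 0.047 on the leukocyte scale (adjusted p = 0.00198). The PLIN2 to LPL ratio within a library overlapped between groups, at 0.214 ± 0.0112 in KD and 0.216 ± 0.00370 in NC (exact permutation p = 0.9, n = 3 each).

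The 10 genes spanned a wide range of abundance. In TPM, which scales counts by exon length before library size, FABP5 led with 1071 ± 45.2 TPM in KD and 493 ± 8.27 TPM in NC, followed by APOE with 1005 ± 29.3 TPM in KD and 331 ± 10.1 TPM in NC (SD, n = 3 each). FABP5 and APOE overlapped in KD libraries and were separate in NC libraries. LPL came next with 602 ± 18.4 TPM in KD and 252 ± 3.77 TPM in NC, then FABP4 with 521 ± 14.9 TPM in KD and 130.5 ± 3.79 TPM in NC. Below them the order was PLIN2, ABCA1, NR1H3 and ABCG1 in both groups, all separate, with ABCA1 at 63.5 ± 0.450 TPM in KD and 25.0 ± 0.525 TPM in NC. The last pair changed places. PPARG averaged 8.29 ± 0.315 TPM in KD and 3.89 ± 0.331 TPM in NC, and MYLIP averaged 6.20 ± 0.730 TPM in KD and 4.89 ± 0.391 TPM in NC. PPARG lay above MYLIP in each KD library and below it in each NC library.

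**Figure D3:**
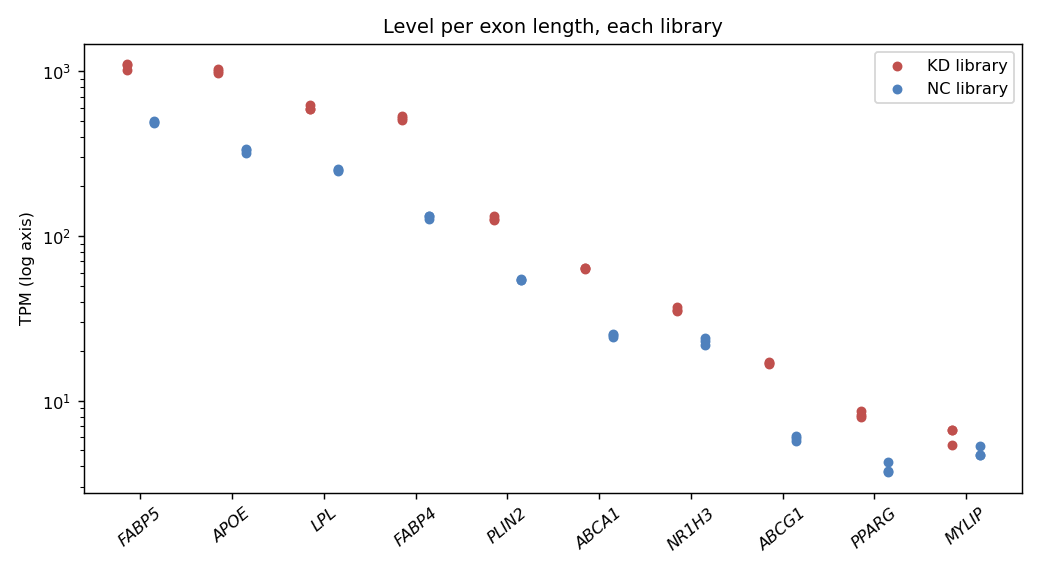
Level of the 10 lipid genes in TPM (log axis) in each library, with KD points and NC points side by side for each gene and genes ordered by level. The genes run from about 1071 TPM for FABP5 to 6.20 TPM for MYLIP in KD.

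Around the 10 genes, 117 other genes of the same pathways were listed and 95 were tested. On the all-gene scale 61 were higher in KD, 17 were lower and 17 did not pass, with a median log2 fold change of 0.44. Of all tested genes, 36.2% were higher and 40.3% lower on that scale, with a median of -0.05. On the leukocyte scale 8 were higher and 76 lower, against 3.71% and 82.8% of all tested genes. The median there was -0.74 for the pathway genes and -1.23 for all tested genes. The 8 that were higher on the leukocyte scale were CD36, CYP7B1, MARCO, MGLL, NCOA3, OLR1, PPARD and STARD4.

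Of 11 tested LXR targets besides the 10 genes, 9 were higher and 2 lower on the all-gene scale, against 36.2% and 40.3% of all tested genes. By leukocyte scaling 0 rose and 9 fell, against 3.71% and 82.8% of all tested genes. The desaturase SCD averaged 629 ± 3.08 CPM in KD and 359 ± 3.03 CPM in NC (log2 fold change 0.81 ± 0.040 SE), and on the leukocyte scale it was -0.37. APOC2, the apolipoprotein that switches LPL on, averaged 285 ± 11.4 CPM in KD and 142 ± 2.69 CPM in NC, 1.00 on the all-gene scale and -0.18 on the leukocyte scale. The phospholipid remodelling enzyme LPCAT3 and the phagocytic receptor MERTK were the 2 that were lower on both scales, at -0.89 and -0.61 on the all-gene scale, and are named after their values were seen. The fatty acid synthase FASN averaged 136 ± 4.55 CPM in KD and 85.8 ± 4.70 CPM in NC (0.66 ± 0.045 and -0.52). Among 16 nuclear receptor partners and coregulators, 12 were higher and 2 lower on the all-gene scale, against 36.2% and 40.3% of all tested genes. By leukocyte scaling 2 rose and 12 fell, against 3.71% and 82.8% of all tested genes. RXRA, the partner of both LXR and PPARG, averaged 35.6 ± 0.705 CPM in KD and 16.4 ± 0.836 CPM in NC, a log2 fold change of 1.12 ± 0.060 (SE), and did not pass on the leukocyte scale (-0.06, adjusted p = 0.357 by edgeR).

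Other PPAR targets were mixed, with 9 of 15 tested higher and 3 lower on the all-gene scale, against 36.2% and 40.3% of all tested genes. By leukocyte scaling 1 rose and 11 fell, against 3.71% and 82.8% of all tested genes. The scavenger receptor CD36 was the 1 that was higher on both, at 37.9 ± 1.58 CPM in KD and 13.0 ± 0.709 CPM in NC, a log2 fold change of 1.54 ± 0.063 (SE) and of 0.36 on the leukocyte scale. ACADM, an enzyme of mitochondrial fatty acid oxidation, was lower on both, at 56.0 ± 0.947 CPM in KD and 102 ± 3.55 CPM in NC (-0.86 ± 0.043 and -2.04). In modified lipoprotein uptake, 8 of 9 tested genes were higher and 0 lower on the all-gene scale, against the same 36.2% and 40.3%. By leukocyte scaling 3 rose and 4 fell, against 3.71% and 82.8%. MARCO, another scavenger receptor, averaged 28.8 ± 0.315 CPM in KD and 7.57 ± 0.811 CPM in NC, with log2 fold changes of 1.93 ± 0.076 (SE) and 0.75 on the leukocyte scale. MSR1, the class A scavenger receptor, was at 1.23 ± 0.042 on the all-gene scale and 0.05 on the leukocyte scale, where it did not pass (adjusted p = 0.285 by edgeR).

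In oxysterol supply and cholesterol movement, 8 of 17 tested genes were higher and 4 lower on the all-gene scale. The shares of all tested genes were 36.2% and 40.3%. By leukocyte scaling 2 rose and 15 fell, against 3.71% and 82.8% of all tested genes. CYP7B1, the hydroxylase that breaks down oxysterols, averaged 14.7 ± 0.484 CPM in KD and 3.46 ± 0.288 CPM in NC, a log2 fold change of 2.09 ± 0.098 (SE), and 0.91 on the leukocyte scale. The sterol carrier STARD4 averaged 134 ± 2.49 CPM in KD and 45.0 ± 1.76 CPM in NC (1.58 ± 0.043 and 0.40). Of 20 tested genes of droplet synthesis and breakdown, 11 were higher and 4 lower on the all-gene scale, against the same 36.2% and 40.3%. By leukocyte scaling 1 rose and 18 fell, against 3.71% and 82.8%. MGLL, the last lipase of triglyceride breakdown, was at 117 ± 4.62 CPM in KD and 38.2 ± 2.78 CPM in NC (1.61 ± 0.050 and 0.43). GPAM, the first acyltransferase of triglyceride synthesis, was lower on both, at 4.33 ± 0.252 CPM in KD and 17.4 ± 1.11 CPM in NC (-2.01 ± 0.092 and -3.19). Among 12 tested partners of LPL and lipoprotein receptors, 7 were higher and 2 lower on the all-gene scale, against 36.2% and 40.3%. By leukocyte scaling 0 rose and 11 fell, against 3.71% and 82.8%.

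**Figure D4:**
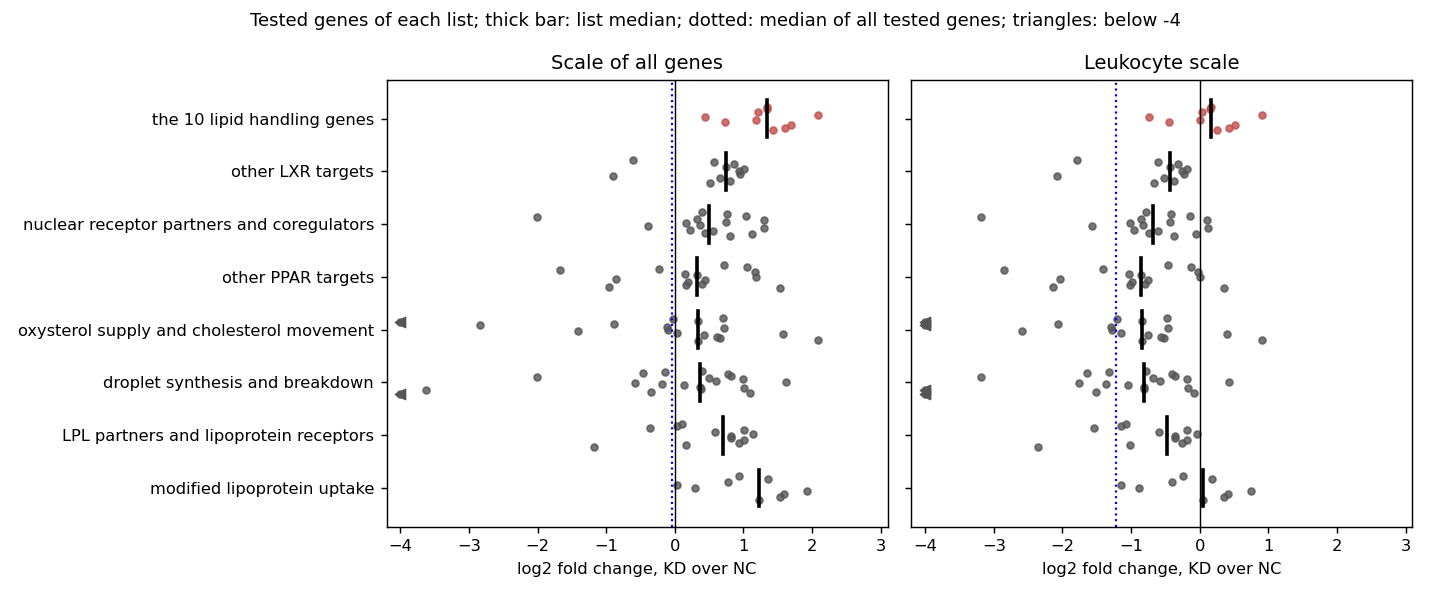
Log2 fold change, KD over NC, of every tested gene among the 10 lipid genes (red) and 7 pathway lists (grey), on the all-gene scale at the left and the leukocyte scale at the right, with thick bars for list medians, dotted lines for the median of all tested genes and triangles for genes below -4. The list medians lie between 0.33 and 1.34 on the all-gene scale, and only those of the 10 genes and of modified lipoprotein uptake (0.05) are above 0 on the leukocyte scale.

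Markers of other cell types that use these genes were low or moved as follows. The macrophage list of 12 genes had a count for 12 of 12 in both groups. It summed to 1918 to 2026 CPM in KD libraries, against 1137 to 1209 CPM in NC libraries. On the all-gene scale 11 of 11 tested were higher, while by leukocyte scaling 0 rose and 7 fell. Of the 12, 7 are also leukocyte-restricted genes that enter the leukocyte sum and set the leukocyte scale, so the list is not separate from them. Of all tested genes, 36.2% were higher on the all-gene scale, and by leukocyte scaling 3.71% rose and 82.8% fell. An endothelial list, a cell type that also makes FABP4, summed to 339 to 344 CPM in KD libraries, against 134 to 140 CPM in NC libraries, with 7 of 8 tested genes higher on the all-gene scale, while by leukocyte scaling 3 rose, 1 fell and 4 did not pass. PECAM1 led it, and EMCN was at 0 in every library. A hepatocyte list, a cell type that makes APOE, summed to 16.5 to 17.6 CPM in KD libraries, against 5.74 to 6.004 CPM in NC libraries, with APOH, AHSG and APOC3 at 0. Neural and glial genes summed to 121 to 123 CPM in KD libraries, against 65.7 to 67.5 CPM in NC libraries. Epithelial genes summed to 15.3 to 16.0 CPM in KD libraries, against 116 to 125 CPM in NC libraries. The most abundant of them, KRT8 and KRT18, are also in the HEK293-type list, so the epithelial sum is not separate from that list. Fibroblast and smooth muscle, T and NK cell, B and plasma cell, and erythroid and megakaryocytic lists each summed to at most 17.2 CPM in KD libraries and at most 23.0 CPM in NC libraries. The part of these cell types in the lipid gene values was not tested.

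**Figure D5:**
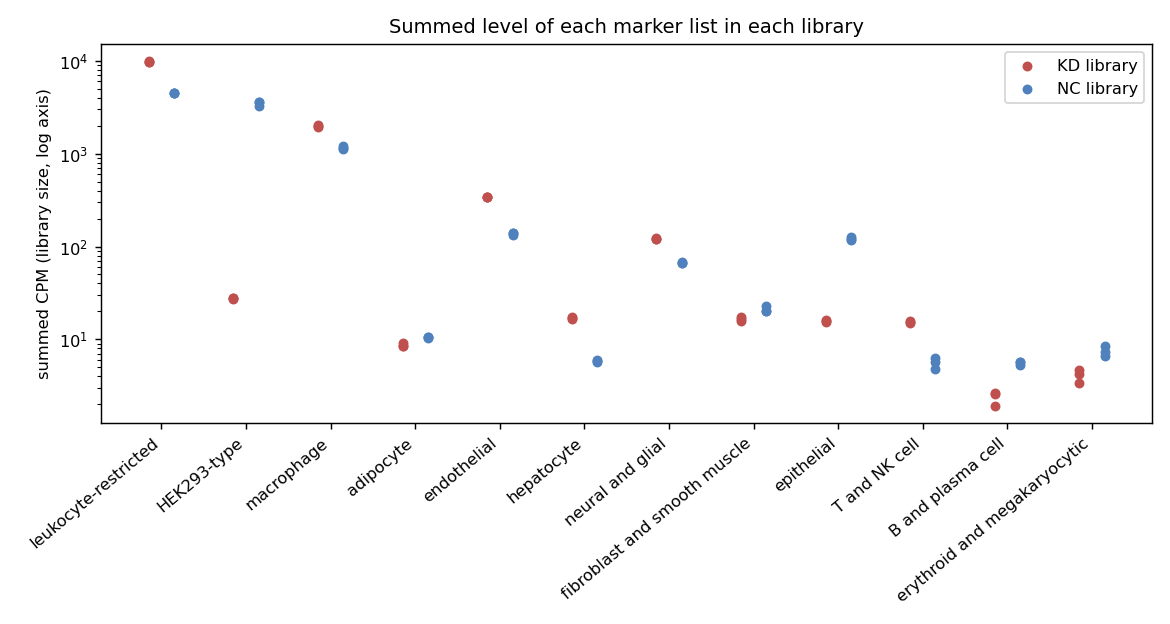
Summed CPM of each marker list (log axis) in every library, with KD points left of NC points. The leukocyte-restricted sum is 9757 to 9903 in KD and 4462 to 4537 in NC, and the HEK293-type sum is 27.5 to 27.9 in KD and 3264 to 3613 in NC.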

How the data were processed

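RNA-seq was measured in 6 THP-1 libraries. The authors deposited 1 table of raw read counts per gene with exon coordinates and exon length, on GRCh38. Per the submitters' processing notes, reads were processed with fastp 0.23.0, and no source used here names the aligner, the counting program or its handling of strand. Total counts per library were 37628972 to 42970216, and no row lacked a gene name. The main comparison was edgeR 4.0.16 quasi-likelihood (robust, TMM, filterByExpr, 21905 genes, common biological variation 0.0499), KD over NC, two-sided, with Benjamini-Hochberg adjustment over all tested genes at 0.05. The leukocyte scale refits it with TMM factors from 69 leukocyte-restricted genes. SE is the log2 fold change over the square root of F. TPM were computed from the counts and the deposited exon lengths. Ratios within a library are of counts per length, tested by exact permutation (scipy 1.17.1), with adjustment over 7 ratios, 1 of which is not reported here. All 10 genes were named, with up to 4 genes per pathway list of smallest p and up to 3 per marker list of highest CPM; LPCAT3 and MERTK were added after their values were seen. The genes and lists were chosen with earlier results of these data known. Alternatives were DESeq2 1.42.0, limma-voom 3.58.1, other scalings and filters, counts divided by 2, a test against a fold of 1.5, a replicate block, and each library left out.

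The fit was tested on simulated counts of 21432 genes with 50 genes changed at each fold. It recovered 38% at 1.25-fold, 84% at 1.5-fold, 86% at 2-fold and 98% at 4-fold. Among changed genes with a mean of at least 1 CPM, a stratum chosen after the first run fell short at 2-fold, it recovered 45%, 93.3%, 100% and 100%. It called 6 unchanged genes. Few genes were changed in the simulation, so it says nothing of a comparison in which most genes differ. Within groups, chi-square per degree of freedom between libraries was 3.16 to 6.18, so no library was a copy of another.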

Additional observations from a re-analysis of the deposited data

How the results depend on the processing

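With TMM over the leukocyte-restricted genes, 6 of the 10 lipid genes were higher and 2 lower, and NR1H3 (-0.45) and MYLIP (-0.74) turned round. With that scaling 8 pathway genes were higher and 76 lower, and 3.71% of all tested genes were higher and 82.8% lower. The median of all tested genes was -0.05 on the all-gene scale, -0.23 with library sizes alone and -1.23 on the leukocyte scale. Against a fold of 1.5, 38 pathway genes were higher and 13 lower, where 18.0% of all tested genes were higher and 5716 of 21905 lower. With that test on the leukocyte scale, 1 lipid gene was higher (FABP4) and 1 lower (MYLIP). Of all 21905 tested genes, 0.685% were higher and 15124 genes lower in it. Of 180 alternatives to the all-gene fit for single lipid genes, 174 kept direction and call, 4 lost the call and 2 turned round. The 2 that turned round were NR1H3 and MYLIP with the leukocyte scaling, by which PPARG and FABP5 lost the call. MYLIP lost the call with library sizes alone and against a fold of 1.5. Leaving out each library in turn left 10 of 10 lipid genes higher, 6 higher and 2 lower on the leukocyte scale, and 59 to 60 pathway genes higher and 17 to 18 lower. Replicate numbers did not pair the samples: same-numbered KD and NC libraries correlated at 0.0153, 0.00592 and -0.0138, and not every library correlated best with its own number. With the replicate block, 10 lipid genes, and 61 pathway genes, were higher, 7763 of all tested genes were higher against 7934 without it, and no call on the lipid genes changed on either scale. With 3 libraries a group, no ratio could pass 0.05. MYLIP, at 198 to 294 counts, is the least precise of the 10.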
